A study of Mus musculus with 4 samples.

Results

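The genes of the cytosolic ribosome were examined in mouse liver after a day without food. Members are genes whose symbol is Rpl or Rps with a number and an optional letter, together with Rplp0, Rplp1, Rplp2 and Rpsa. They had to be read by a probe set, the unit of an Affymetrix array, that is annotated to 1 gene only. This gave 44 of the 12393 genes measured, 24 of the large subunit and 20 of the small subunit. Where a gene had several such probe sets, the brightest by mean over the 4 arrays was used. A further 28 ribosomal protein symbols, Rpl10, Rpl5, Rplp1 and Rps12 among them, occurred only on probe sets that list several genes, often pseudogenes, and have no value of their own here.

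Total RNA was taken from the livers of 4 mice aged 1 month, all wild type on a C57/BL6 background. The control group is 2 mice, and the other group is 2 mice starved for 24 h. The titles call the samples of a group biological replicates. The description field calls the control mice not injected and the starved mice injected, and what that refers to is not settled. Signals are on the log2 scale of the RMA method, and log2 changes are positive where starved liver read higher. A liver sample holds several cell types, and fewer cells of a type cannot be told apart from less RNA per cell.

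A ribosome of the cytosol is built from a large 60S and a small 40S subunit, each a core of ribosomal RNA covered by proteins that are mostly present in a single copy. Their mRNAs are among the most abundant in a growing cell, and most begin with a C and a run of pyrimidines, the 5′ terminal oligopyrimidine (TOP) tract. Through this tract the kinase complex mTORC1 controls how many of these mRNAs are translated, so amino acids and insulin can change ribosomal protein synthesis without a change in mRNA. Liver is known to lose ribosomes during fasting, by slower synthesis and by breakdown in lysosomes. An mRNA array reads the transcript only.

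RefSeq start sites (GRCm38.p6) were held in the promoter table for 39 of the 44 members. They are shown because the tract is the shared regulatory feature of these mRNAs. Each line gives 10 bases before and 20 bases after an annotated start, 5′ to 3′, with capitals for the longest run of at least 5 C or T bases that begins with C between 5 bases before and 10 bases after the start (of several starts, the one with the longest run). The first 4 are the members with the smallest p among those with a higher starved mean.
Rps27 (chr3:90213629-90213658, minus strand): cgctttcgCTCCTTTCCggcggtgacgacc
Rps25 (chr9:44407704-44407733, plus strand): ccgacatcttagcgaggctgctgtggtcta
Rps18 (chr17:33955646-33955675, minus strand): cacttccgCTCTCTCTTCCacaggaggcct
Rpl10a (chr17:28328461-28328490, plus strand): gcccccccagcggccgcaaactgcagcgcc
The next 4 are those with the smallest p among members with a lower starved mean and an entry in the table.
Rpl41 (chr10:128549149-128549178, minus strand): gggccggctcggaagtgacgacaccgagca
Rps27l (chr9:66946076-66946105, plus strand): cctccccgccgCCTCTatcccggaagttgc
Rpsa (chr9:120127756-120127785, plus strand): ttatttaaggacgtcatttccggccgcccg
Rplp2 (chr7:141447641-141447670, plus strand): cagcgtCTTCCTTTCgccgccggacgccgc
The last 3 were picked by hand, Rps6 as a well-known member and Rpl35 and Rps10 as members with tracts of 16 and 13 bases. In Rpl35 the count begins at the edge of the stretch searched, and the run of pyrimidines reaches further upstream.
Rps6 (chr4:86857348-86857377, minus strand): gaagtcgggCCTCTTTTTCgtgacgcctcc
Rpl35 (chr2:39005112-39005141, minus strand): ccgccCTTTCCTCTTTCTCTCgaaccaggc
Rps10 (chr17:27635225-27635254, minus strand): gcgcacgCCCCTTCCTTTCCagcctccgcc

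Such a tract lay at the annotated start of 23 of the 39 members (59.0%), against 26.5% of all 27025 genes in the table. An annotated start can lie some bases from the real one, so a start without capitals says only that no such run is in this stretch. In Rpl10a a run of C bases begins upstream of the stretch searched, and only its last 3 bases were counted. In each set of 4 above, 2 starts held a tract. The 23 members with a tract had a median log2 change of 0.02 (range -0.17 to 0.45) and the 16 without had 0.03 (-0.22 to 0.18), so the ranges overlapped.

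The letters CCGGAA, the core bound by ETS-family factors such as GABP, were present on either strand in the 300-base window of 26 of the 39 members (66.7%), against 16.7% of all genes in the table. The window runs from 250 bases before to 50 after the start. The Sp1 box GGGCGG was found in 53.8% of members and 38.2% of all genes, and the YY1 letters GCCATNTT in 12.8% and 6.96%, both strands counted. These are matches of letters, not sites. A core upstream of the start is shown in capitals for 2 members of each direction, those with the smallest p whose core has 17 bases on either side before the start. Of several upstream cores the one closest to the start was taken, and Rpsa holds a further one just after its start, in the line printed for it above. Each line is 40 bases of the sense strand, with the core 56 to 75 bases before the start.
Rps25 (chr9:44407624-44407663, plus strand): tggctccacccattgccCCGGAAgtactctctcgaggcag
Rps18 (chr17:33955718-33955757, minus strand): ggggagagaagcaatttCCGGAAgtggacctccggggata
Rpl41 (chr10:128549202-128549241, minus strand): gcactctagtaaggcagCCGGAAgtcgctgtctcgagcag
Rpsa (chr9:120127680-120127719, plus strand): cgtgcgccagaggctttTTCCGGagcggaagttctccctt
The 26 members with the core and the 13 without both had a median log2 change of 0.02. The median was 0.00 for the 21 members with the Sp1 box (range -0.22 to 0.31) and 0.06 for the 18 without (-0.08 to 0.45). It was 0.06 for the 5 members with the YY1 letters (-0.01 to 0.45) and 0.02 for the 34 without (-0.22 to 0.31). The ranges overlapped for each motif, and no difference was tested.

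Ribosomal protein transcripts differed little between starved and control livers. None of the 44 members passed the limma test at an adjusted p under 0.05, where 0.0646% of all genes did (0.0323% higher and 0.0323% lower), and 0 passed in any of the 13 alternatives. That background is 8 genes, and it was 59 without control 1 and between 0 and 27 in the other alternatives. With so few genes passing, 0 among 44 members carries little weight. At an unadjusted p under 0.05 there was 1 member, Rps27, or 2.27% of the 44, against 11.3% of all genes (5.25% higher and 6.02% lower). The median log2 change was 0.02 over the members and 0.00 over all genes, and the members lay between -0.22 (Rpl41) and 0.45 (Rps27). No member differed by more than 0.5 in either direction, whereas 6.41% of all genes did.

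The intervals were narrow enough to bound the change in signal of most members. The 95% interval of the limma fit lay wholly between -0.5 and 0.5, that is within a 1.41-fold difference either way, for 41 of 44 members and for 55.3% of all genes. The 3 others were Rps27 (0.12 to 0.79), Rpl27a (-0.30 to 0.93) and Rpl41 (-0.51 to 0.08). The 41 include the 5 members below the median signal of all genes, Rpl39l (4.04), Rpl3l (4.23), Rpl14 (5.82), Rpl12 (6.35) and Rps25 (6.84). On such dim probe sets a narrow interval bounds the signal and need not bound the transcript. The median standard error was 0.117 for the members and 0.133 for all genes. Replicate mice were also close, with a median gap between the 2 control arrays of 0.07 over the members and 0.15 over all genes, and between the 2 starved arrays of 0.07 and 0.14.

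**Figure D1:**
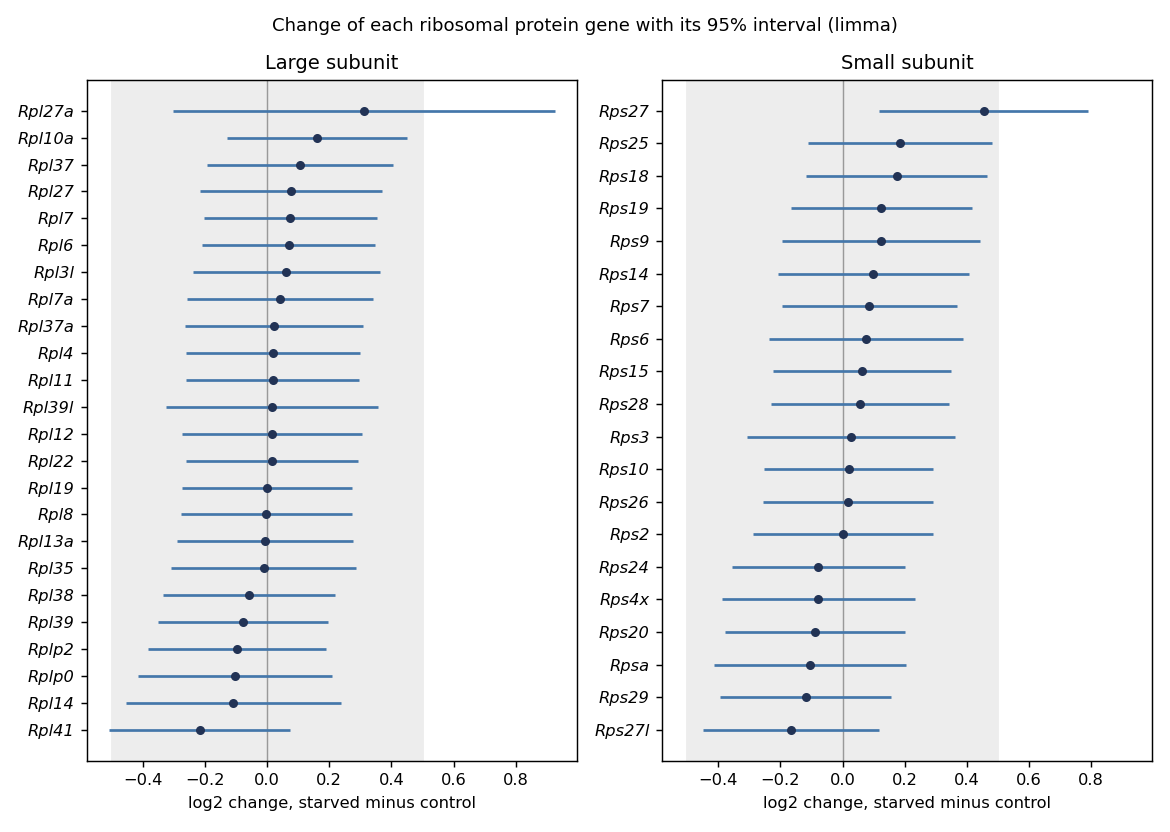
Log2 change (starved minus control) of the 24 large and 20 small subunit genes, with points for the change and bars for the 95% interval of the limma fit, over a grey band from -0.5 to 0.5. The bars of 41 genes stay inside the band, and Rps27, Rpl27a and Rpl41 reach outside it.

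By sign 28 members were higher and 15 lower in starved liver, and Rpl19 was equal. Of all genes 50.8% were higher. The starved arrays lay both above the control arrays in 11 members and both below in 8, so 43.2% of members did not overlap, against 42.2% of all genes (21.4% above and 20.9% below). The members' share was thus near the background. The mean of the 44 members relative to the control mean was 0.02 on control 1, -0.02 on control 2, 0.03 on starved 1 and 0.02 on starved 2.

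Most members were read from bright probe sets. A mean signal of at least 12 was found for 32 of the 44, and 33 lay above the 95th percentile of all genes. The brightest signal on any array was 15.47. Signals of different probe sets are not measures of relative transcript abundance, since probes bind with different strength. Among the 475 other genes with a signal of at least 12, 17.5% differed by more than 0.5 and the median absolute change was 0.18. For the 32 bright members these values were 0% and 0.07.

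Proteins of the large subunit stalks, which recruit the translation factors and move the tRNAs, showed small differences in both directions. Rplp0, the base of the acidic stalk, read 12.92 and 13.10 in control and 12.86 and 12.95 in starved liver, a change of -0.10 ± 0.13 (SE). Rplp2, one of the acidic proteins bound to it, read 13.11 and 13.21 against 13.02 and 13.10, a change of -0.10 ± 0.12. In both genes the control 2 array was the highest, and only in Rplp2 did the groups not overlap. Rpl10a, the protein of the L1 stalk at the exit site of the ribosome, read 12.98 and 13.02 in control and 13.10 and 13.22 in starved liver. Both starved mice lay above the controls, and the change was 0.16 ± 0.12 (limma, adjusted p = 0.675).

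Proteins of the peptide exit tunnel and of a subunit bridge had changes near 0. Rpl4, which lines the tunnel, read 13.15 and 13.11 in control and 13.19 and 13.11 in starved liver. Rpl35, at the tunnel exit, read 12.49 and 12.46 against 12.55 and 12.38. Rpl19, which forms a bridge to the small subunit, read 12.99 and 12.98 against 13.00 and 12.98. The groups overlapped in all of these, and the changes were 0.02, -0.01 and 0.00. Rpl39, a very small protein inside the tunnel, read 7.27 and 7.31 against 7.21 and 7.21, with both starved mice lower and a change of -0.08.

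Rpl41, one of the smallest known proteins and a bridge between the subunits, had the lowest change of all members. It read 13.12 and 13.26 in control and 12.97 and 12.99 in starved liver, so both starved mice were lower. The change was -0.22 ± 0.12 (SE), 1.16-fold lower, and did not pass (limma, adjusted p = 0.551). A second probe set of at least signal 12 gave 12.73 and 12.74 against 12.47 and 12.61, a change of -0.20. Of its other probe sets, 1 of signal 6.80 gave -0.02 and another of signal 5.66 gave 0.34, so the direction depended on the probe set.

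Rpl11, which binds the p53 inhibitor Mdm2 when ribosome assembly is disturbed, read 12.87 and 12.80 in control and 12.87 and 12.85 in starved liver. Its change of 0.02 was smaller than the gap between the control mice. Rpl38, known for its part in translating Hox mRNAs, read 13.59 and 13.54 against 13.53 and 13.48, a change of -0.06. Rpl27a had the highest change among large subunit genes, 0.31 ± 0.25 (SE), but its control mice were far apart, at 9.20 and 8.47, and the starved mice, at 9.23 and 9.07, lay on either side of control 1. Without control 1 the Rpl27a change was 0.68, and without control 2 it was -0.06. The other large subunit members, among them Rpl6, Rpl7, Rpl7a, Rpl8, Rpl27, Rpl37 and Rpl37a, had changes of 0.11 or less in size.

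Small subunit genes gave the highest change of all. Rps27, a zinc-finger protein of the 40S platform, read 7.15 and 6.93 in control and 7.57 and 7.42 in starved liver. Both starved mice were above both controls, and the change was 0.45 ± 0.14 (SE), 1.37-fold higher. It had the smallest p of the members (limma, unadjusted p = 0.0166, adjusted p = 0.318) and did not pass. Its change stayed between 0.34 and 0.57 when each array was left out. This probe set has a far lower signal than most members, and no other single-gene probe set of Rps27 was present.

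Other members of the small subunit with a higher starved mean differed by less. Rps25, needed for initiation on some internal ribosome entry sites, read 6.80 and 6.69 in control and 6.87 and 6.98 in starved liver, a change of 0.18 ± 0.12 (SE). Rps18, in the head of the 40S subunit, read 13.23 and 13.12 against 13.39 and 13.30, a change of 0.17 ± 0.12. Rps19, the gene most often mutated in Diamond-Blackfan anaemia, had a control mean of 12.03 ± 0.04 (SD, n = 2) against starved values of 12.09 and 12.22, a change of 0.13 ± 0.12. In these 3 genes both starved mice lay above both controls, and none passed (limma, adjusted p = 0.620 to 0.763). The 4 brightest of the 6 probe sets of Rps18 had both starved arrays above the controls, with changes of 0.17 to 0.32. In its dimmest sets, of signal 4.16 and 3.97, the groups overlapped, with changes of 0.02 and 0.05. Probe sets of a gene read the same RNA samples and are not independent repeats. Rps9 read 12.43 and 12.45 against 12.45 and 12.68, and both starved arrays lay above both controls, starved 1 by less than the second decimal shows.

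Members of the small subunit with a lower starved mean were Rps27l, Rps29, Rpsa, Rps20, Rps4x and Rps24. Rps29, a zinc-binding protein, read 13.89 and 13.94 in control and 13.81 and 13.78 in starved liver, a change of -0.12 ± 0.11 (SE). Rpsa, which is also known as a laminin receptor, read 12.81 and 12.82 against 12.81 and 12.61. Here the lower mean came from starved 2 alone. Rps24 had 4 probe sets of signal over 11, and in each the starved arrays lay below the controls, with changes of -0.18 to -0.08. Its sets of signal 5.75 and 5.69 overlapped, with changes of 0.00 and 0.02. None of these passed the test.

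Rps6, the target of the S6 kinases, read 9.25 and 9.14 in control and 9.36 and 9.18 in starved liver, and the groups overlapped. Its change of 0.08 ± 0.13 (SE) had a 95% interval of -0.24 to 0.39. Phosphorylation of the Rps6 protein, the usual readout of mTORC1, is not measured by these arrays. Rps3, at the mRNA entry of the 40S subunit, had starved values of 12.34 and 12.60 on either side of its controls at 12.41 and 12.48. Rps10, Rps26 and Rps2 each had a change of 0.02 or less.

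**Figure D2:**
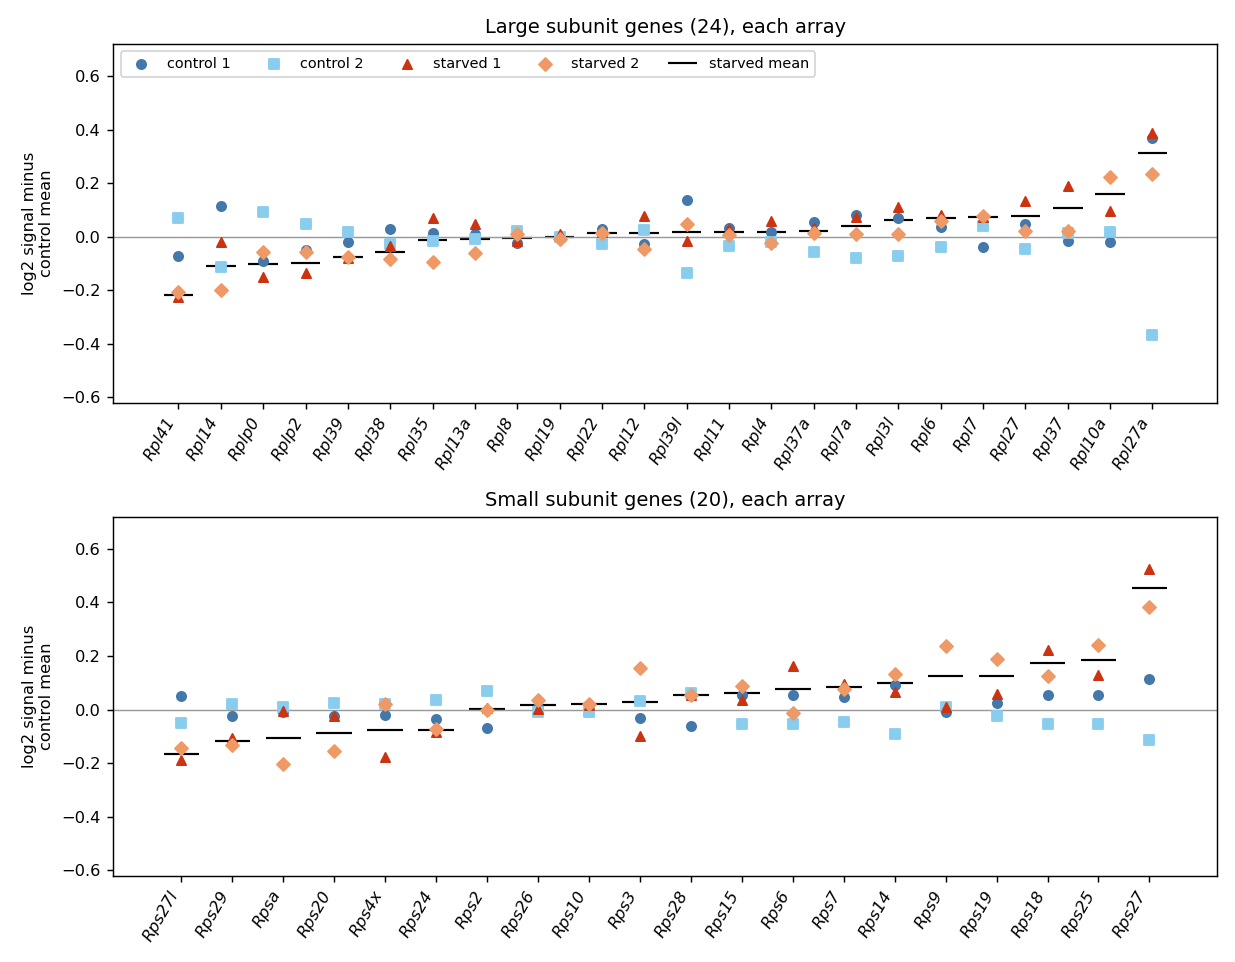
Log2 signal of each member on each of the 4 arrays minus its control mean, ordered by change, with large subunit genes above and small subunit genes below; black bars mark the starved mean. Most points lie close to 0, Rps27 shows both starved arrays above both controls, and Rpl27a shows a wide gap between its control arrays.

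Several members serve as reference genes in quantitative PCR of liver. Rpl13a, which is released from the ribosome in interferon responses, read 13.67 and 13.65 in control and 13.70 and 13.60 in starved liver, a change of -0.01 with a 95% interval of -0.29 to 0.28. Rpl19 had 0.00 (-0.27 to 0.27), Rplp0 -0.10 (-0.42 to 0.21) and Rps18 0.17 (-0.12 to 0.47). The point estimates of Rps18 and Rplp0 thus lay on opposite sides of 0, while the intervals of all 4 overlapped.

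Paralogs with an l suffix are known from particular tissues or responses. Rpl3l, the striated muscle paralog of Rpl3 (which has no value of its own here), read 4.27 and 4.13 in control and 4.31 and 4.21 in starved liver. Rpl39l, best known from testis, read 4.17 and 3.90 against 4.02 and 4.08. These were the members with the lowest signals, and the groups overlapped in both. Rps27l, a paralog of Rps27 that p53 can induce, read 13.19 and 13.09 in control and 12.95 and 13.00 in starved liver, a change of -0.17 ± 0.11 (SE). Its 3 probe sets differed by -0.23 to -0.09, while the probe set of Rps27 differed by 0.45. Of the Rps27l sets, 2 end in _x_at, a type that may bind related transcripts, and the difference between the paralogs was not tested. The related genes Rpl22l1, Rpl7l1 and Rps3a1, which the symbol rule left out, gave 0.19, -0.18 and 0.03.

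Large and small subunit genes had overlapping ranges of change. Of the 28 ribosomal protein symbols without a value of their own, 22 belong to the large and 6 to the small subunit. The large subunit set is thus the less complete. The median log2 change was 0.02 over the 24 large subunit genes and 0.04 over the 20 small subunit genes, a difference of -0.03. That difference was 0.03 without starved 2 and 0.01 without control 1, so its sign depended on single arrays. By sign 14 of 24 large and 14 of 20 small subunit genes were higher. The groups did not overlap in 33.3% of large and 55.0% of small subunit genes, against 42.2% of all genes. The mean of the large minus the mean of the small subunit genes, set to 0 for the control mean, was 0.02 on control 1, -0.02 on control 2, 0.00 on starved 1 and -0.06 on starved 2. No test was made of this difference, since 2 against 2 arrays cannot reach a small p by permutation.

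Members with more than 1 single-gene probe set show how far the values depend on the choice of probe set. The 44 members had 95 such sets in all, of which 0 passed the limma test across all single-gene probe sets. For the 22 members with several sets, the changes within a gene spanned a median of 0.14. The span was over 0.5 in 3 genes. Rps20, of the 40S head, differed by -0.09 and -0.01 on its probe sets of signal 13.35 and 13.19, but by 0.58 and 0.48 on those of signal 5.81 and 4.43. On the set of signal 5.81, control mice read 5.46 and 5.58 and starved mice 6.39 and 5.81. Rpl22, a protein dispensable in most mouse tissues, gave 0.02 on the set of signal 11.07 and 0.67 on an _s_at set of signal 8.80. There it read 8.76 and 8.19 in control and 9.03 and 9.24 in starved liver. The third gene was Rpl41, described above. Rps9, chosen after its values were seen, had a span of 0.48, with 0.55 on an _x_at set that read 11.25 and 11.55 in control and 11.85 and 12.03 in starved liver.

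Among single-gene probe sets the spread was wider on dimmer ones. The 54 sets with a signal of at least 12 differed by -0.23 to 0.24, and 0 of them by more than 0.5. The 17 sets of signal 8 to 12 differed by -0.18 to 0.67, and the 24 below 8 by -0.11 to 0.58. The sets past 0.5 were higher in starved liver, and they belong to Rpl22, Rps9 and Rps20. A separate group of 102 probe sets lists a ribosomal protein symbol together with other genes. Their median change was 0.01, with 2 past 0.5 in size. The 65 with a signal of at least 12 also had a median of 0.01, but ranged from -0.26 to 0.54. The gap between 3′ and 5′ probe sets of actin, a sign of RNA integrity, was 1.76 and 1.79 on control arrays and 1.85 and 2.06 on starved arrays, and its part in these differences was not tested.

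**Figure D3:**
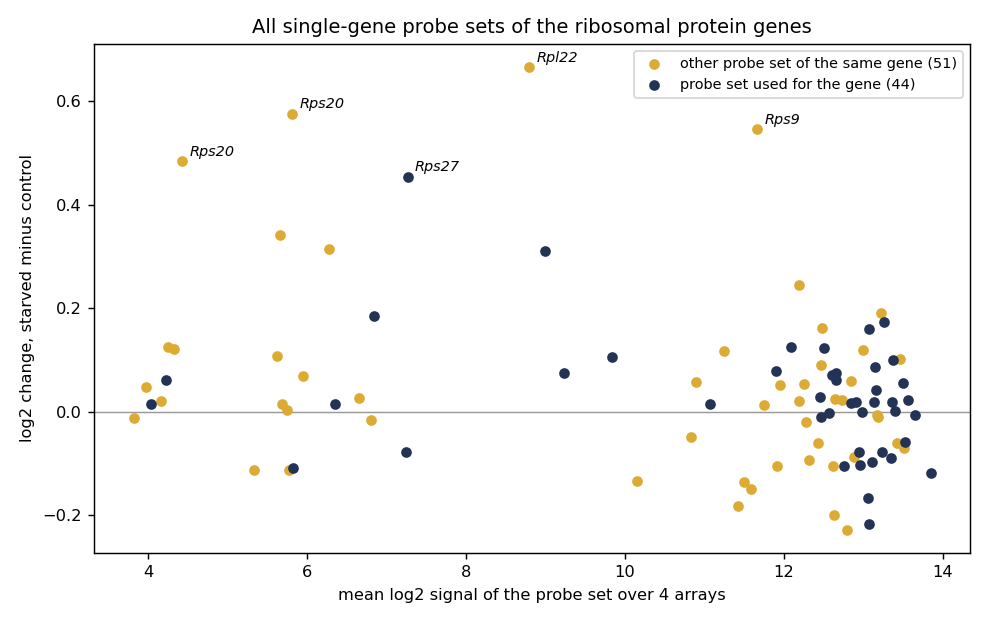
Log2 change (starved minus control) of all 95 single-gene probe sets of the members against their mean log2 signal over the 4 arrays; dark points are the 44 sets used for the genes. Sets of signal 12 or more stay between -0.23 and 0.24, and the labelled sets of Rpl22, Rps20, Rps9 and Rps27 lie above 0.4.

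Other genes of protein synthesis were set beside the members as lists. Of the 74 mitochondrial ribosomal protein genes, 0 passed the limma test, and the median change was -0.04 (-0.02 without control 1 and after a further quantile normalization, -0.06 without starved 1). The starved arrays lay below both controls in 25 (33.8%, against 20.9% of all genes) and above in 12 (16.2%, against 21.4%). Ribosome assembly and RNA polymerase I genes had a median of 0.02 over 59 genes, with 0 past the test. Taf1a, a subunit of the selectivity factor of RNA polymerase I, read 6.42 and 6.46 in control and 6.88 and 7.10 in starved liver, a change of 0.55. Initiation factors were counted here only where they are not in the list of TOP mRNAs below. They had a median of -0.01 over 23 genes and elongation factors of 0.04 over 8, with 0 past the test in each. The elongation list also holds Eef1e1 and Eef2k, which are related genes and not elongation factors themselves. Both medians turned sign when single arrays were left out: initiation factors had 0.02 and elongation factors -0.02 without starved 2. The elongation median was also 0.00 without the dimmest 40% of genes and after averaging probe sets. Eef1d, of the exchange complex of elongation factor 1, had the smallest p of the latter, with a change of 0.26 ± 0.11 (SE). Fau, which encodes a 40S protein fused to a ubiquitin-like domain, differed by 0.23 ± 0.13.

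A list of 19 transcripts taken to carry a TOP tract, ribosomal protein mRNAs left out, had a median change of 0.17. That of the ribosomal protein genes was 0.02. Whether the 19 hold a tract at their annotated starts was not looked up. The list was chosen with earlier results of these data known. It holds some initiation factors but no elongation factors. The latter were listed apart whether or not they carry such a tract, with a median of 0.04 over 8 genes, Eef1e1 and Eef2k included. Both starved arrays lay above the controls in 14 of the 19 (73.7%), against 21.4% of all genes, and below in 2. None passed the limma test (adjusted p of at least 0.211). Gas5, a noncoding host of small nucleolar RNAs, read 10.71 and 10.27 in control and 11.20 and 11.20 in starved liver, a change of 0.71 ± 0.17 (SE). Hnrnpa1, a splicing factor, read 8.90 and 8.86 against 9.37 and 9.36, and Npm1, a nucleolar chaperone, 11.48 and 11.50 against 11.94 and 11.95. The difference between this list and the ribosomal protein genes was not tested. Of 16 regulators of ribosomal protein synthesis 0 passed, with a median of 0.18. It was 0.09 without control 1, 0.10 without starved 1 and 0.11 after averaging probe sets. Myc, which drives ribosome production, read 6.83 and 6.56 in control and 7.27 and 7.13 in starved liver, a change of 0.51 ± 0.14. Max, its binding partner, read 6.97 and 6.54 against 6.32 and 6.34, a change of -0.43 ± 0.17 with both starved mice lower.

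**Figure D4:**
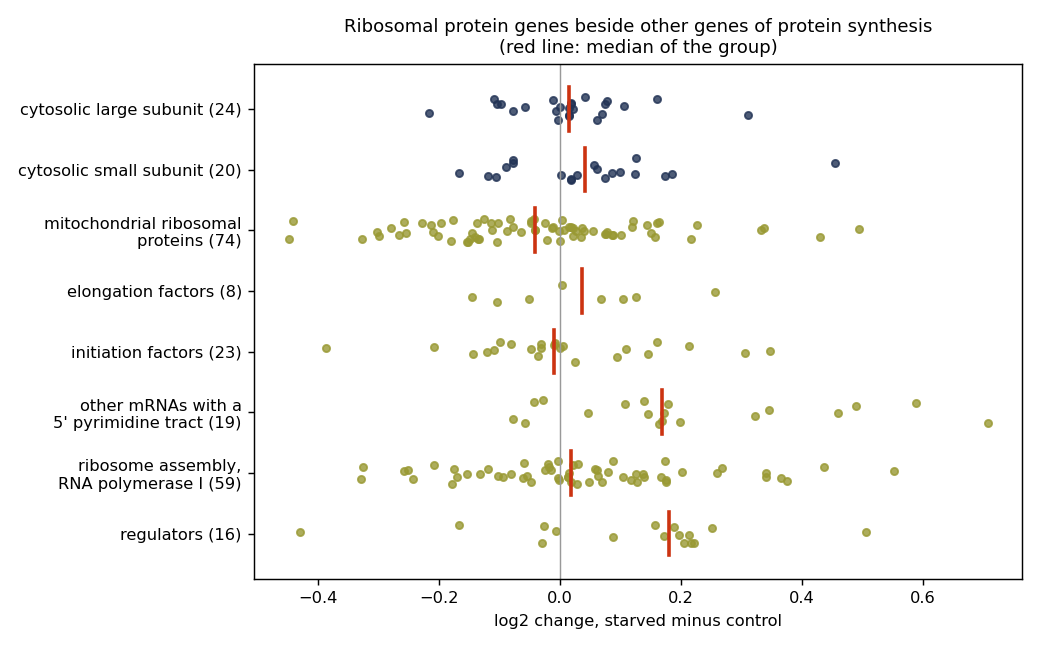
Log2 change (starved minus control) of each gene in the large and small cytosolic subunit and in 6 lists of protein synthesis genes, with the number of genes in brackets and a red line at the median. The cytosolic ribosomal protein genes lie near 0, with medians of 0.02 and 0.04. The list of other transcripts taken to carry a pyrimidine tract, which leaves out the elongation factors, has a median of 0.17.

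Markers of liver cell types were read on the same arrays. All 9 measured hepatocyte markers had a mean signal of at least 13.08, where the median of all genes was 7.17. None of the 73 measured markers of 8 cell types passed the limma test. The summed signal of 7 red cell markers (log2) was 10.97 and 10.56 in control and 11.07 and 10.80 in starved liver, and that of 12 lymphocyte markers 10.14 and 10.28 against 10.09 and 10.42. The groups overlapped in these sums and in those of hepatocytes, macrophages, granulocytes, endothelial and stellate cells. In the sum of 6 bile duct markers, at 8.04 and 8.05 in control and 8.11 and 8.36 in starved liver, they did not. Taken singly, 1 of these 6 genes did not overlap (16.7%), against 42.2% of all genes. Their mean signals were low, at 3.7 to 6.47. A sum is set by its brightest markers, and single markers differed more. Among stellate cell and fibroblast markers, Col3a1 read 9.29 and 8.70 in control and 7.24 and 7.70 in starved liver, a change of -1.53, with Acta2 at -0.54 and Pdgfrb at -0.36. Both starved arrays lay below the controls in 4 of the 10 genes of that list, against 20.9% of all genes. By sign 6 of these 10 genes were lower and 4 higher, the latter by up to 0.31, and the median change was -0.09. The endothelial marker Lyve1 read 6.64 and 6.64 against 8.89 and 8.02, a change of 1.81. In the other 9 of the 10 endothelial markers the groups overlapped, and by sign 6 of the 10 were lower. The red cell marker Slc4a1 gave 0.90, while by sign 4 of the 7 red cell markers were higher and 3 lower. By sign 9 of the 10 macrophage markers were lower and 1, Marco, was higher, by 0.70. The macrophage list had a median change of -0.09, and the groups did not overlap in 30.0% of it, against 42.2% of all genes. The control arrays were themselves apart in the endothelial sum, at 12.22 and 11.23. The part of other cell types in the members' values was not tested.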

How the data were processed

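The authors deposited log2 signals, 1 per probe set and array. The submitters' processing notes name RMA and affy, while the sources used here give neither versions nor settings. RMA makes the arrays' distributions alike, which hides any change shared by all mRNAs. Of 22690 probe sets, 64 Affymetrix controls were left out, 20380 carried 1 gene symbol, 691 several and 1555 none. Entrez identifiers linked 20351 of these to current RefSeq symbols (GRCm38.p6). Members were matched on the annotated symbol, and Rps4l, a pseudogene in that table, was left out. Of the 44 members, 13 were read from _x_at and 1 from _s_at probe sets.

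The groups, 2 arrays each, were tested in limma 3.58.1 under R 4.3.3 (lmFit, then eBayes), two-sided, no covariate, Benjamini-Hochberg over 12393 genes, threshold 0.05. The total degrees of freedom were 5.71. The number of arrays limits the precision, and the p-values rest on the spread within these pairs of mice.

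The members and lists were chosen with earlier results of these data known, so lists are described by counts and medians. Named members are the 8 with the smallest p in each direction, the 4 with the highest and the 4 with the lowest signal, l-suffix paralogs with their parents, members whose probe sets differ by over 0.5, and Rps6, Rplp0 and Rpl13a as well-known members (Rpl10, also in the rule, has no value); others are named to complete a structural group, after their values were seen. Of each list at most 3 genes are named. Alternatives covered scaling, filtering, probe set choice, eBayes settings, the symbol rule, a block by replicate number and omission of each array.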

Additional observations from a re-analysis of the deposited data

How the results depend on the processing

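No member passed limma in any of the 13 alternatives, but few of all genes did in any of them, so this carries little weight. Leaving out 1 array, the median change ran from -0.000345 to 0.0314 over all members, -0.014 to 0.0394 for the large and 0.0139 to 0.0447 for the small subunit, and their difference from -0.0368 to 0.0254. The count of members without overlap ran from 28 to 36, against 19 with all arrays, since a lone array overlaps less easily. After a further quantile normalization the medians were 0.0342 over all members, 0.0624 for the small subunit and -0.0229 for mitochondrial ribosomal proteins. The small subunit median was 0.0648 when a gene's probe sets were averaged and 0.0621 without _x_at and _s_at sets. Elongation factors had 0.00353 without the dimmest 40% of genes, 0.00378 after averaging probe sets and 0.068 without _x_at and _s_at sets, and regulators 0.107 after averaging probe sets. With 1 array left out, list medians ran from -0.0618 to -0.0172 (mitochondrial), -0.0234 to 0.0354 (elongation), -0.0492 to 0.0167 (initiation), 0.124 to 0.224 (other TOP mRNAs) and 0.0881 to 0.164 (regulators).

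The direction turned for Rps20 after averaging probe sets (0.24) and without _x_at and _s_at sets (0.58), and under the latter for Rpl41 (0.34) and Rpl13a (0.06), where dimmer probe sets replace the brightest. With 1 array left out it turned for 9 named members, whose changes ran from -0.05 to 0.08 (Rpl12), -0.06 to 0.05 (Rpl13a), -0.22 to 0.01 (Rpl14), -0.01 to 0.04 (Rpl22), -0.06 to 0.68 (Rpl27a), -0.03 to 0.08 (Rpl37a), -0.12 to 0.15 (Rpl39l), -0.01 to 0.13 (Rpl3l) and -0.01 to 0.16 (Rps6). The labels give replicate numbers but no pairing of mice. Deviations of same-numbered arrays correlated at 0.017 over all genes, which cannot settle whether mice were paired. With the replicate number as a block, 0 members passed (smallest adjusted p = 0.323, limma), against 0 without it, and the calls over all genes went from 8 to 0. They were also 0 after the further quantile normalization, 27 with trend and robust eBayes settings, and 2 to 59 with 1 array left out. Where an array was left out, limma takes the remaining one to vary as the other group does.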
